A study of Homo sapiens with 6 samples.

Results

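The 35 genes described here encode proteins that remove DNA interstrand crosslinks and repair broken DNA by homologous recombination, that is, the Fanconi anaemia proteins, BRCA1, BRCA2 and their partners, the paralog proteins RAD51B, RAD51C, RAD51D, XRCC2 and XRCC3, and the nucleases and helicases that work with them. They were chosen by name, with earlier results of these data known, and all 35 of 35 were found among the 33542 genes of the deposited table. RNA sequencing had been performed on T24 cells, a human cell line from a urinary bladder carcinoma, grown as a culture and transfected either with a control small interfering RNA (siNC) or with one directed against TRAIP (siTRAIP). Each group held 3 libraries, both groups were the same line handled with the same lipid transfection reagent, and neither the target sequence nor the number of RNAs used per gene is stated in the labels. The siTRAIP libraries carry the name siTR2 in their descriptions, and effects of the RNA other than on TRAIP were not tested. Whether libraries of one group were grown apart is not stated either. Each p-value sets the difference between the groups against the spread between libraries within a group, and that spread may be technical.

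An interstrand crosslink ties both strands of the double helix together and stops replication forks. TRAIP is a ubiquitin ligase that travels with the replication machinery; when forks meet at a crosslink, it ubiquitinates the replicative helicase, after which the glycosylase NEIL3 can cut one of the bonds, or the helicase is unloaded and the Fanconi pathway takes over. In the Fanconi pathway a core complex with the ubiquitin ligase subunit FANCL marks the FANCD2 and FANCI clamp with ubiquitin, nucleases held by SLX4 unhook the crosslink, and the resulting break is repaired from the sister chromatid by homologous recombination, in which BRCA2 and the paralog proteins take part. Many of these genes are expressed most in dividing cells, in which a sister chromatid is present.

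TRAIP mRNA stood at 26.6, 28.3 and 28.4 CPM (counts scaled to a common library total, here with TMM factors) in siNC replicates 1 to 3 and at 12.5, 14.7 and 11.6 CPM in siTRAIP replicates 1 to 3. The groups did not overlap, and TRAIP mRNA fell by 53.5% (log2 fold change -1.11, SE 0.07, edgeR adjusted p = 6.74e-10). Total gene counts ran from 39111793 to 70439496 per library, and the 35 repair genes had between 86 and 20964 counts in any library. The replicate 3 library of siTRAIP stood apart from the other 2 of its group (chi-square over degrees of freedom 17.3 and 18, against 3.3 to 7.95 for the remaining pairs), so a result is also given without that library where this ends or makes a call. The epithelial keratins KRT7, KRT8 and KRT18 were abundant (1308, 1686 and 497 CPM in siNC). The other epithelial markers were lower in siNC, KRT19 at 20.7, EPCAM at 1.30 and CDH1 at 0.0112 CPM. The defining urothelial markers UPK1A, UPK2 and UPK3A were at 0.0120, 0.893 and 0.00602 CPM in siNC. Of the urothelial transcription factor genes, PPARG stood at 18.4, FOXA1 at 3.05 and GATA3 at 0.173 CPM in siNC. The leukocyte markers PTPRC and CD14 were at 0.0116 and 0.0643 CPM in siNC, the 3 endothelial ones (PECAM1, CDH5 and TEK) summed to at most 0.184 CPM, and the 3 fibroblast ones (COL1A1, COL1A2 and PDGFRB) to between 1.08 and 4.74 CPM.

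Most of the crosslink and recombination repair genes stood at nearly the same level in both groups. Of the 35 genes, 5 rose (RAD51D, FANCE, FANCI, BRCA2 and RBBP8), 1 fell (XRCC3) and 29 did not pass an edgeR adjusted p of 0.05; adjustment was over all 18685 genes tested, of which 12.8% passed, 7.47% as rises and 5.34% as falls. All 35 passed the filter on low counts. The count of 6 is 17.1% of the list, close to that background share. Without siTRAIP replicate 3, the library that stood apart, 6 members passed as well, 5 of them shared with the first 6; BRCA2 dropped out and EME1 came in. The changes were small: the log2 fold changes ran from -0.23 (XRCC3) to 0.34 (RAD51D), and 20 of the 35 lay within 0.1 of 0. Groups did not overlap for 10 of the 35 genes, 8 of them with higher values in siTRAIP. Among all tested genes 29.1% were without overlap, 14.8% with higher and 14.4% with lower values in siTRAIP. The median log2 fold change was 0.0376 over the 35 genes and -0.00174 over all tested genes. On library totals without TMM factors, both medians were lower, at -0.0222 and -0.0617, so that the sign of the list median depends on the scaling. On that scaling 3 members were called, of which 1 was higher, and among all genes called the share that rose was 29% in place of 58.3%.

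**Figure D1:**
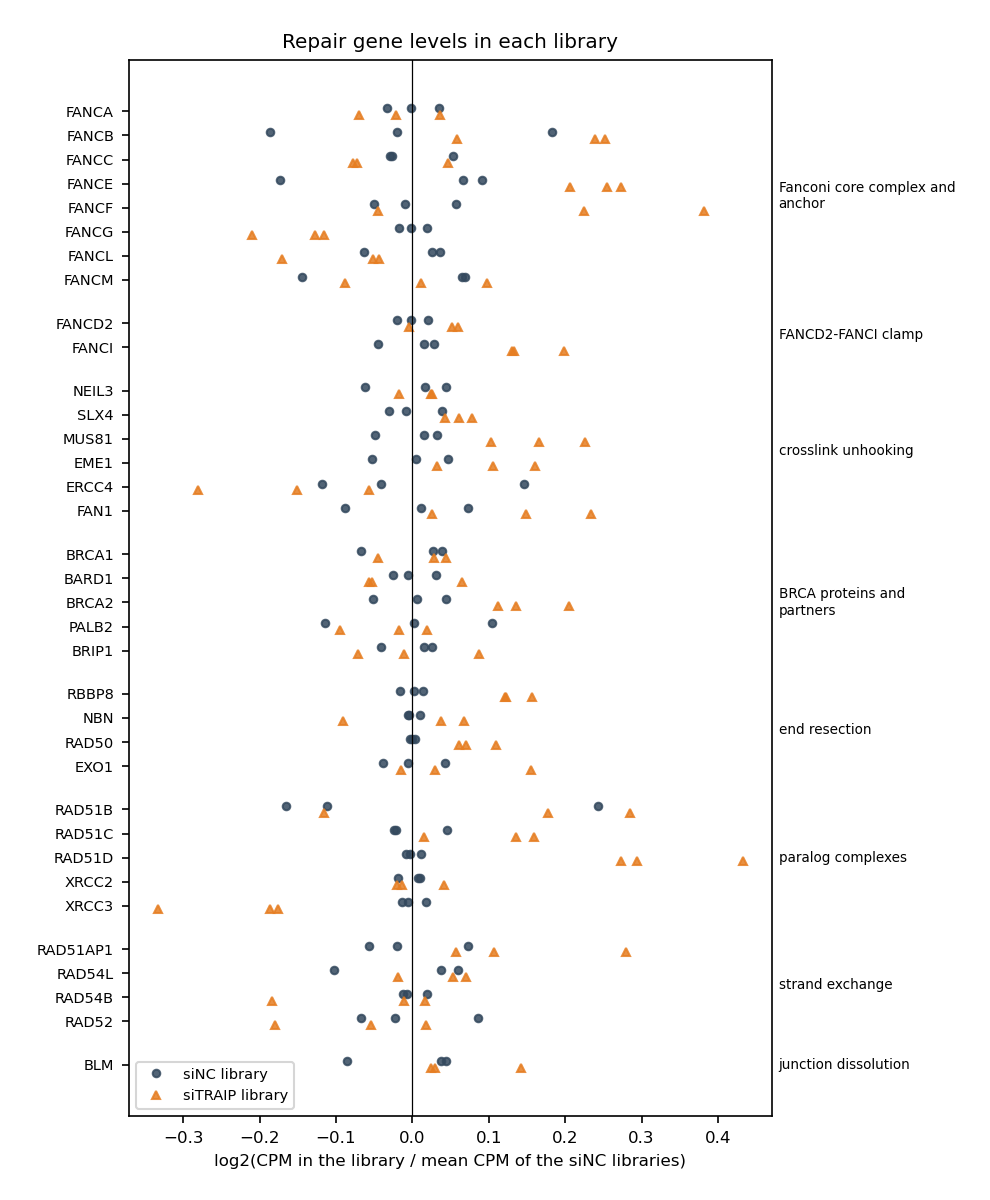
Level of each of the 35 repair genes in each library, as the log2 ratio of its CPM to the mean CPM of the siNC libraries (horizontal axis), with genes grouped by role; circles are siNC and triangles siTRAIP libraries. For RAD51D all 3 triangles lie to the right of the circles and for XRCC3 all 3 lie to the left, while for most other genes the symbols overlap.

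The Fanconi core complex and its anchor FANCM showed 1 rise among 8 genes. FANCE, the subunit that bridges the core complex to FANCD2 (chromosome 6, 35452361 to 35467103, GRCh38), stood at 10.9, 13.1 and 12.8 CPM in siNC replicates 1 to 3 and at 14.8, 14.6 and 14.2 CPM in siTRAIP. The siTRAIP libraries were all above the siNC libraries, and siNC replicate 1 was the lowest. FANCE rose by 18.4% (log2 fold change 0.24, SE 0.08, edgeR adjusted p = 0.0382). FANCE no longer passed when siNC replicate 1 was left out (adjusted p = 0.27) or siNC replicate 3 (0.0583), without siTRAIP replicate 1 (0.115) or 2 (0.103), with DESeq2 (0.0529), at equal depth (0.0943), on library totals (0.113) and on the scales log2(RPKM + 0.1) and log2(RPKM + 1) tested with limma (0.171 and 0.175). FANCM, the DNA translocase that brings the complex to stalled forks, stood at 15.7, 13.6 and 15.8 CPM in siNC and 15.1, 14.1 and 16.1 CPM in siTRAIP. These ranges coincide (log2 fold change 0.01, 95% interval -0.14 to 0.17, edgeR adjusted p = 0.955).

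FANCG, a scaffold subunit that binds FANCA, stood at 25.6, 25.2 and 24.9 CPM in siNC and 23.1, 23.3 and 21.8 CPM in siTRAIP. Its groups did not overlap, with siTRAIP lower, but with a log2 fold change of -0.15 and an SE of 0.06 it missed the threshold (edgeR adjusted p = 0.0874); it passed on library totals (adjusted p = 0.0152) and in limma on both RPKM scales (0.0363 and 0.0379). FANCL, the ubiquitin ligase subunit, had a log2 fold change of -0.09 (95% interval -0.22 to 0.04), and FANCA, the largest core subunit, one of -0.02 (-0.13 to 0.09). FANCC had one of -0.03 (-0.18 to 0.12). The 2 core genes with the widest intervals were FANCB, at 0.19 (-0.01 to 0.39), and FANCF, at 0.20 (-0.05 to 0.46); FANCF, with as few as 128 counts in a library, stood at 3.36 to 3.62 CPM in siNC and 3.37 to 4.53 CPM in siTRAIP. Exons of other genes on the opposite strand cover 23.6% of the exonic bases of FANCA (ZNF276) and 18.7% of those of FANCL (VRK2), and because the counting option for strand is not given, the values of both are uncertain.

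FANCI and FANCD2 form the clamp that the core complex ubiquitinates, and FANCI, of the pair, passed the test. FANCI (chromosome 15, 89243949 to 89317261) stood at 111, 112 and 107 CPM in siNC replicates 1 to 3 and at 120.4, 120.2 and 126 CPM in siTRAIP. All siTRAIP libraries lay above all siNC libraries. FANCI rose by 11.3% (log2 fold change 0.15, SE 0.04, edgeR adjusted p = 0.0173). FANCI no longer passed on leaving out siNC replicate 1 (adjusted p = 0.0653), 2 (0.0508) or 3 (0.0958), on library totals (0.142) and in limma on both RPKM scales (0.168 and 0.163), and POLG, transcribed the other way, covers 5.9% of its exonic bases. FANCD2 stood at 32.7, 32.2 and 31.8 CPM in siNC and 33.6, 32.1 and 33.4 CPM in siTRAIP, with overlapping groups (log2 fold change 0.04, 95% interval -0.07 to 0.14, edgeR adjusted p = 0.733). Whether the changes of FANCI and FANCD2 differ from each other was not tested. Per gene length, FANCI stood at 14.4 ± 0.290 RPKM and FANCD2 at 3.93 ± 0.0595 RPKM in siNC (SD, n = 3 each).

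None of the 6 genes of crosslink unhooking passed the test. NEIL3, the glycosylase of the route that TRAIP opens (chromosome 4, 177309836 to 177362943), stood at 20.4, 20.04 and 18.98 CPM in siNC and at 20.1, 19.6 and 20.2 CPM in siTRAIP. The siTRAIP values lay within the range of siNC, with a log2 fold change of 0.01 (SE 0.06, 95% interval -0.12 to 0.14, edgeR adjusted p = 0.94). SLX4, the scaffold that carries nucleases, stood at 33.3 to 34.9 CPM in siNC and 35.03 to 35.9 CPM in siTRAIP, which do not overlap, with a log2 fold change of 0.06 (edgeR adjusted p = 0.512). MUS81, the catalytic subunit of a nuclease that cuts branched DNA, stood at 11.8, 11.1 and 11.6 CPM in siNC and 12.4, 13.5 and 12.9 CPM in siTRAIP, again without overlap (log2 fold change 0.17, 95% interval 0.02 to 0.32, edgeR adjusted p = 0.148). Its partner EME1 had a log2 fold change of 0.10 (edgeR adjusted p = 0.21), which passed without siTRAIP replicate 3 (adjusted p = 0.049), and FAN1, a nuclease recruited by ubiquitinated FANCD2, one of 0.14 (0.182). ERCC4 (XPF), the nuclease that incises beside the crosslink, was the one gene of this group with a negative log2 fold change, -0.17 (95% interval -0.33 to -0.00, edgeR adjusted p = 0.197). Opposite-strand exons cover 14.1% of the exonic bases of MUS81, 16.4% of those of EME1, 25.7% of those of ERCC4 and 24.3% of those of FAN1.

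Of BRCA1, BRCA2 and their 3 partners, BRCA2 rose. BRCA2 acts on the single-stranded DNA of a resected break (chromosome 13, 32315474 to 32400266), and its mRNA stood at 37.5, 35.1 and 36.6 CPM in siNC and at 39.98, 39.3 and 41.9 CPM in siTRAIP. The groups did not overlap, and the rise was 11.2% (log2 fold change 0.15, SE 0.05, edgeR adjusted p = 0.0483). Of the 6 called members it was the closest to the threshold and was lost in 14 of 18 alternatives, among them each library left out (adjusted p from 0.0633 without siTRAIP replicate 2 to 0.235 without siNC replicate 2) and DESeq2 (0.0725). BRCA1, a ubiquitin ligase that acts in end resection, stood at 105, 106 and 98.3 CPM in siNC and 106, 99.8 and 105 CPM in siTRAIP; the ranges coincide (log2 fold change 0.01, 95% interval -0.08 to 0.10, edgeR adjusted p = 0.931). BARD1, the obligate partner of BRCA1, had a log2 fold change of -0.01 (95% interval -0.14 to 0.12), PALB2, the link between BRCA1 and BRCA2, one of -0.03 (-0.16 to 0.10), and the helicase BRIP1 (FANCJ) one of 0.01 (-0.10 to 0.11).

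Among the 4 genes of end resection, the step that exposes single-stranded DNA at a break, RBBP8 rose. RBBP8 (CtIP), which stimulates the first cut (chromosome 18, 22798261 to 23026488), stood at 129, 128 and 127 CPM in siNC and at 143, 139 and 139 CPM in siTRAIP. The gap between the groups was wider than the range within either one, and the rise was 9.67% (log2 fold change 0.13, SE 0.04, edgeR adjusted p = 0.0318). RBBP8 no longer passed on leaving out siNC replicate 1 (adjusted p = 0.105), 2 (0.12) or 3 (0.107), without siTRAIP replicate 1 (0.108) or 2 (0.0643), without a count filter (0.0565), at equal depth (0.054), on library totals (0.252) and in limma on both RPKM scales (0.168 and 0.157). RAD50, the ATPase of the nuclease complex that holds the break, stood at 292, 291 and 291 CPM in siNC and 314, 306 and 304 CPM in siTRAIP. Its groups did not overlap, but the difference, 0.08 on the log2 scale with an SE of 0.04, missed the threshold (edgeR adjusted p = 0.215). NBN, another subunit of that complex, had a log2 fold change of 0.01 (95% interval -0.09 to 0.10), and EXO1, which carries resection further, one of 0.06 (-0.05 to 0.17).

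The paralog genes RAD51B, RAD51C, RAD51D, XRCC2 and XRCC3, whose proteins act together in recombination, held both the largest rise and the only fall. RAD51D (chromosome 17, 35092208 to 35121522, minus strand) stood at 12.4, 12.5 and 12.4 CPM in siNC and at 15.3, 15.1 and 16.8 CPM in siTRAIP. The 3 siNC libraries were nearly equal and all siTRAIP libraries lay above them. RAD51D rose by 26.5% (log2 fold change 0.34, SE 0.07, edgeR adjusted p = 0.00174), a call that held in 16 of 18 alternatives, each library left out included, and was lost in limma on both RPKM scales (adjusted p = 0.112 and 0.0969); the cause was not tested. The readthrough gene RAD51L3-RFFL, on the same strand, covers 8.01% of the exonic bases of RAD51D. It had a log2 fold change of 0.09 (edgeR adjusted p = 0.658), and RFFL, the gene after RAD51D in that transcript, had one of -0.20 (0.117).

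XRCC3, which forms a complex with RAD51C (chromosome 14, 103697609 to 103715504, minus strand), stood at 34.1, 33.6 and 33.4 CPM in siNC and at 29.6, 29.8 and 26.7 CPM in siTRAIP. All siTRAIP libraries were below all siNC libraries. XRCC3 fell by 14.9% (log2 fold change -0.23, SE 0.06, edgeR adjusted p = 0.00593), and the call held in 18 of 18 alternatives. Exons of KLC1 on the opposite strand, a gene with 285 CPM in siNC and 275 CPM in siTRAIP (log2 fold change -0.05, edgeR adjusted p = 0.472), cover 76.7% of the exonic bases of XRCC3, so its value is uncertain; the part of KLC1 in it was not tested. XRCC2 stood at 54.3 to 55.4 CPM in siNC and 54.2 to 56.6 CPM in siTRAIP (log2 fold change 0.00, 95% interval -0.09 to 0.10). RAD51C, shared by both paralog complexes, had a log2 fold change of 0.11 (-0.04 to 0.26). RAD51B, with 86 counts in its lowest library and the widest interval of all, had one of 0.13 (-0.20 to 0.47), so that a change of the size seen for RAD51D was not detectable for it at this depth.

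**Figure D2:**
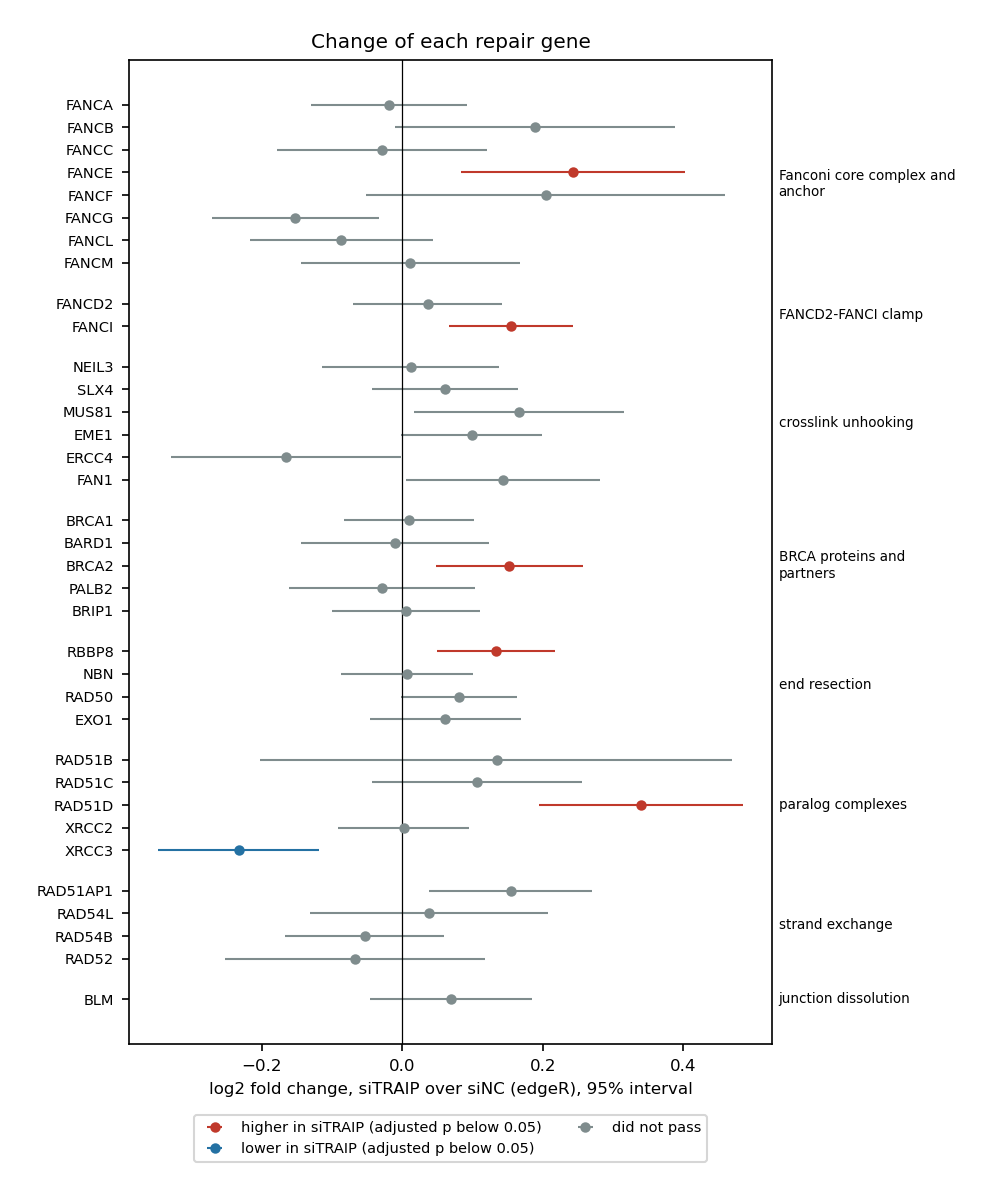
Log2 fold change of each of the 35 repair genes in siTRAIP over siNC with its 95% interval (edgeR), grouped by role; colours mark an adjusted p below 0.05. The 5 rises and the 1 fall are spread over 5 of the 8 roles, and XRCC3 at -0.23 and RAD51D at 0.34 are the extremes.

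The 4 genes that act during strand exchange did not pass. RAD51AP1, which promotes pairing of the broken strand with its target, stood at 48.8, 52.02 and 47.6 CPM in siNC and 51.5, 53.2 and 60.001 CPM in siTRAIP. The groups overlapped and siTRAIP replicate 3 was the highest (log2 fold change 0.15, SE 0.06, edgeR adjusted p = 0.0744); the gene passed without siTRAIP replicate 1 (adjusted p = 0.0454) and without a count filter (0.0421), whereas without siTRAIP replicate 3 the log2 fold change was 0.08 (0.297). The motor protein genes RAD54L and RAD54B had log2 fold changes of 0.04 (95% interval -0.13 to 0.21) and -0.05 (-0.17 to 0.06), and RAD52, which anneals single strands, one of -0.07 (-0.25 to 0.12). FSBP shares 51.3% of the exonic bases of RAD54B and LRRC41 25.1% of those of RAD54L, which makes both uncertain. BLM, the helicase that resolves joined chromatids without crossing over, stood at 33.4, 33.3 and 30.6 CPM in siNC and 33.1, 32.99 and 35.8 CPM in siTRAIP. Its groups overlapped (log2 fold change 0.07, 95% interval -0.05 to 0.18, edgeR adjusted p = 0.492).

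Per gene length, the levels of the 35 genes spanned a 109-fold range in siNC, with a median of 4.58 RPKM. RAD50 was highest at 30.4 ± 0.278 RPKM, followed by RBBP8 at 25.7 ± 0.286 RPKM, RAD51AP1 at 19.7 ± 0.740 RPKM, NBN at 18.5 ± 0.0539 RPKM and EME1 at 17.2 ± 0.456 RPKM (SD, n = 3 each). RAD51B was lowest at 0.280 ± 0.0452 RPKM, below FANCF at 0.831 ± 0.0384 RPKM and RAD51D at 1.12 ± 0.00239 RPKM. The steps between these named neighbours were larger than their SDs, while BRCA1 at 11.8 ± 0.393 RPKM and XRCC2 at 11.6 ± 0.135 RPKM, or ERCC4 at 1.81 ± 0.156 RPKM and FANCM at 1.81 ± 0.165 RPKM, were not apart beyond their spread. Members of one complex differed widely in level: the 8 core complex and anchor genes ran from 0.831 to 8.78 RPKM and the 5 paralog genes from 0.280 to 11.6 RPKM in siNC. These levels rest on the summed exon length of each gene in the deposited table, which for RAD51D is 11304 bases.

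**Figure D3:**
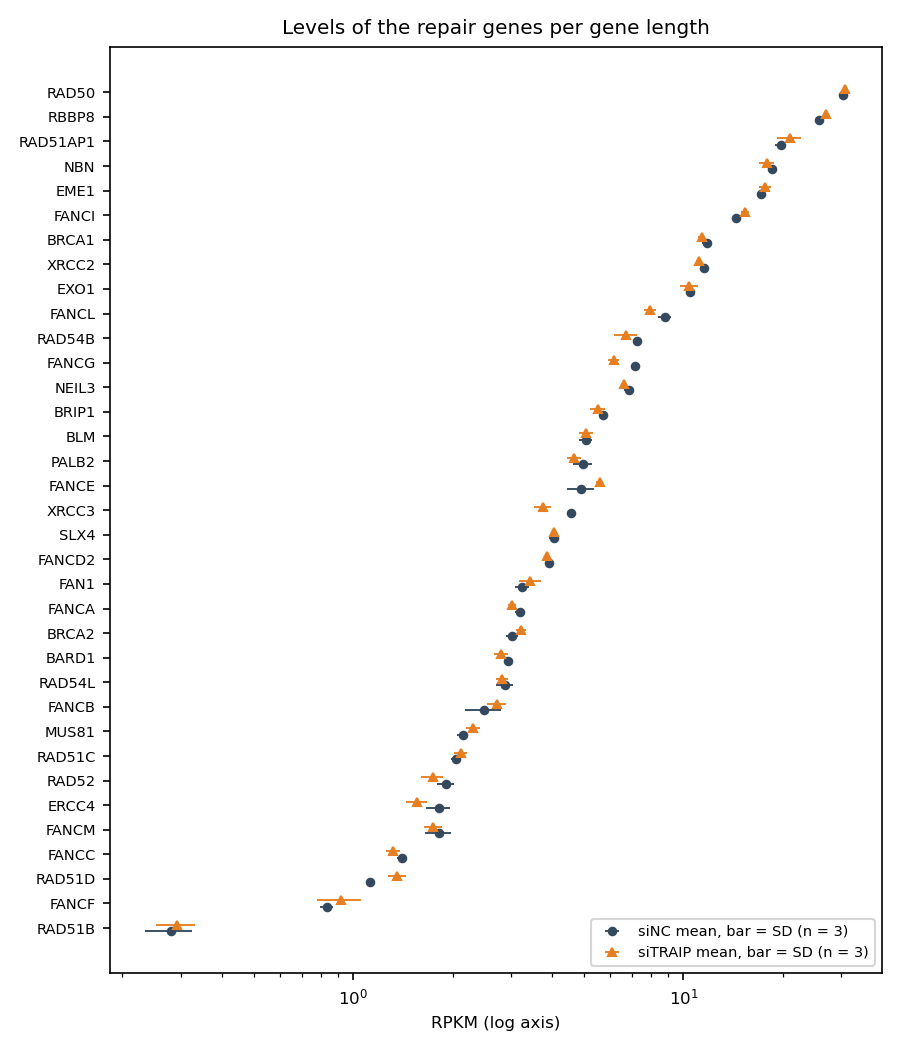
Mean RPKM (log axis) of each of the 35 repair genes in siNC (circles) and siTRAIP (triangles) with SD bars (n = 3 each), ordered by the siNC mean. The genes run from RAD51B at 0.280 to RAD50 at 30.4 RPKM in siNC, a range far wider than any difference between the groups.

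Other genes of both pathways were compared in the same fit. Of 35 further homologous recombination genes tested, 7 rose and none fell, which is 20%, against 12.8% of all tested genes. An unadjusted p under 0.05 in the same edgeR test was found for 16 of them and for 4629 of all 18685 genes tested. The list median log2 fold change was 0.0108. The largest rises were in MND1 and PSMC3IP (HOP2), partners that act in strand exchange. MND1 stood at 21.3, 21.98 and 19.4 CPM in siNC and 26.7, 26.2 and 26.1 CPM in siTRAIP, without overlap (log2 fold change 0.34, SE 0.06, edgeR adjusted p = 0.000455). PSMC3IP stood at 245, 252 and 245 CPM in siNC and 299, 307 and 308 CPM in siTRAIP, also without overlap (log2 fold change 0.30, SE 0.04, edgeR adjusted p = 1.32e-05). Exons of MLX, which runs the other way, cover 29.9% of PSMC3IP exonic bases, and MLX rose as well (log2 fold change 0.22, edgeR adjusted p = 0.000873); its part in the PSMC3IP value was not tested.

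UIMC1 (RAP80) and BRCC3, a ubiquitin-binding subunit and the deubiquitinase of a complex that carries BRCA1 to breaks, had log2 fold changes of 0.28 and 0.21 (edgeR adjusted p = 0.000119 and 0.0062). The calls on MND1, PSMC3IP and UIMC1 held in 18 of 18 alternatives. That on BRCC3 was lost without siNC replicate 3 (adjusted p = 0.0521) and in limma on both RPKM scales (0.165 and 0.167). BRCC3 has 1 annotated pseudogene, as do the members RBBP8, FANCD2 and RAD51AP1. SEM1, a small BRCA2-binding protein listed as SHFM1, rose by 0.17 on the log2 scale (edgeR adjusted p = 0.0187), lost without siNC replicate 1 (0.138) or 2 (0.135) or siTRAIP replicate 2 (0.0512). SPIDR, a scaffold protein that binds BLM, also rose by 0.17 (0.0339), lost without siNC replicate 1 (0.169) or 2 (0.129) or siTRAIP replicate 1 (0.145), and the ubiquitin ligase gene RNF8 rose by 0.16 (0.0388), lost in 11 of 18 alternatives (from 0.0716 to 0.217 with 1 library left out). Of 19 further Fanconi and crosslink repair genes, 1 rose and 1 fell (10.5%, against 12.8% of all tested genes). USP1, which removes ubiquitin from FANCD2 and FANCI, rose by 0.16 (edgeR adjusted p = 0.024), lost without siNC replicate 1 (0.12) or 3 (0.121) or siTRAIP replicate 3 (0.0619). RFWD3 (FANCW), a ubiquitin ligase that acts on RPA, had a log2 fold change of -0.14 (0.0427), lost in 9 of 18 alternatives (from 0.0655 to 0.169 with 1 library left out). The alternatives on library totals and RPKM ended the calls of SEM1, SPIDR, RNF8 and USP1. In edgeR with the replicate number as a block, those of SPIDR (adjusted p = 0.0525) and USP1 (0.0503) were lost too.

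Genes that mark the passage of cells from G1 into S phase, when homologous recombination becomes available, were compared beside the repair genes. Of 20 G1/S genes 13 rose and none fell, with a median log2 fold change of 0.169. An unadjusted edgeR p under 0.05 was found for 14 of them and for 4629 of all 18685 genes tested. Of 20 G2/M genes 7 rose and 2 fell, with a median of 0.0586. The called share was 65% of the G1/S list and 45% of the G2/M list, against 12.8% of all tested genes. The summed level of the G1/S list ran from 2519 to 2543 CPM in siNC and from 2899.8 to 2954 CPM in siTRAIP, a gap that remained on library totals (2569 to 2589 against 2838 to 2879 CPM). The summed level of the 35 repair genes ran from 1454 to 1489 CPM in siNC and from 1510.3 to 1557 CPM in siTRAIP, but on library totals the groups overlapped (1495 to 1519 against 1490.5 to 1524 CPM). The part of the cell cycle genes' movement in the repair gene values was not tested.

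**Figure D4:**
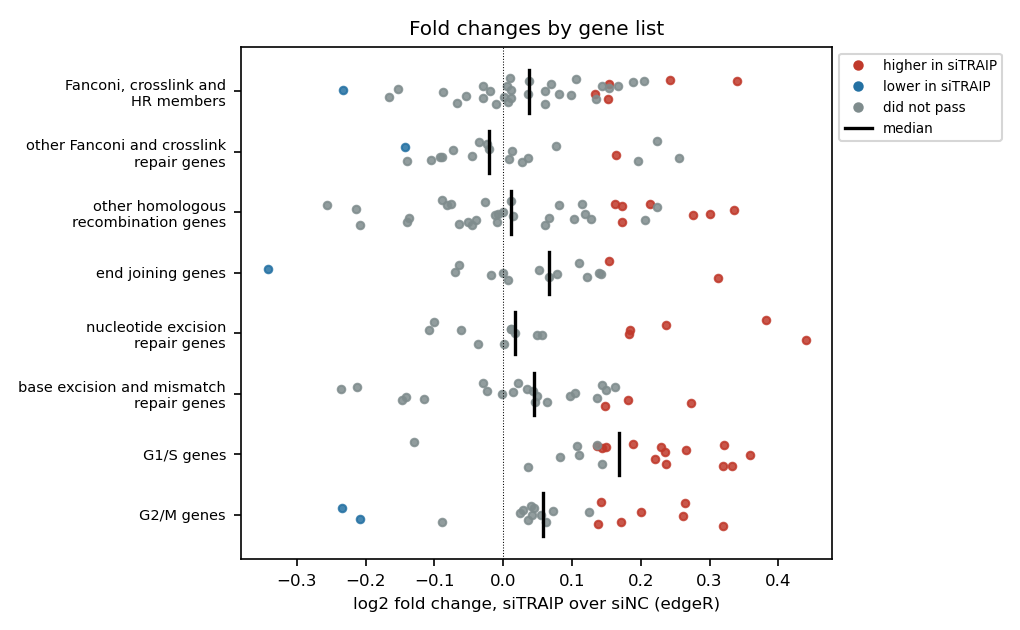
Log2 fold change (horizontal axis) of each tested gene in the 35 repair genes and 7 other lists, with the list median as a black bar and colours for an edgeR adjusted p below 0.05. The G1/S genes lie mostly to the right of 0 (median 0.169), whereas the crosslink and recombination genes are centred near 0 (median 0.0376).

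Since G1/S genes are known targets of E2F factors, the promoters of the repair genes were searched for E2F letters (TTTCCCGC, TTTCGCGC, TTTGGCGC or TTTGCCGC, on both strands). RefSeq promoter windows (GRCh38.p14, 250 bases before to 50 bases after the start) were matched for 32 of the 35 genes. The called gene FANCI had no window. Each gene had a single window, so other starts were not searched. The RBBP8 window begins at 22933078, inside the gene, which spans 22798261 to 23026488. The FANCC window (95317660 to 95317959) also lies inside its gene, which spans 95099054 to 95426796. A match was present in 5 of the 32 (15.6%), against 3.33% of 27305 promoters of the same length. The 5 were FANCA, FANCC, FANCD2, EXO1 and XRCC2; none of them passed the expression test, and none of the 5 called genes with a window (FANCE, BRCA2, RBBP8, RAD51D and XRCC3) held a match. For other elements known from cell cycle promoters, the CHR letters TTTGAA or TTCGAA were present in 3 of the 32 (9.38%, against 16.6% of all) and CCAAT in 11 (34.4%, against 35.7%). A match is a description of the letters in this window and not a measured binding site. Whether matches differ in frequency between called and other members was not tested.

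The 5 windows with a match are shown because they hold all the E2F letters found, followed by that of RAD51D, the gene with the largest rise, which held none; capitals mark the match, and a match in capitals that starts with G is read on the other strand. They lie at chr16:89816598-89816897 (minus strand) for FANCA, chr9:95317660-95317959 (minus strand) for FANCC, chr3:10026187-10026486 (plus strand) for FANCD2, chr1:241847954-241848253 (plus strand) for EXO1, chr7:152676092-152676391 (minus strand) for XRCC2 and chr17:35119709-35120008 (minus strand) for RAD51D.
FANCA: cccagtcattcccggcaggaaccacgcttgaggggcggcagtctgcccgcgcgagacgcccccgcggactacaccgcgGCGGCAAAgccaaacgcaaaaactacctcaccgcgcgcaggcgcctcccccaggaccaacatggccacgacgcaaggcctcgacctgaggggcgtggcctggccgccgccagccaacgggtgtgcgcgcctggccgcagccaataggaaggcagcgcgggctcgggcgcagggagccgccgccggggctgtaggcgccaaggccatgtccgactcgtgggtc
FANCC: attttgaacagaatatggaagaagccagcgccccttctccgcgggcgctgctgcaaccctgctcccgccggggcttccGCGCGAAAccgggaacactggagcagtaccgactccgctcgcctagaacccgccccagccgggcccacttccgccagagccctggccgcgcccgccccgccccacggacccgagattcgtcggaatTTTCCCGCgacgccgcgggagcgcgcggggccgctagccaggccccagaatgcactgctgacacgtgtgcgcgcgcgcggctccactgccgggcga
FANCD2: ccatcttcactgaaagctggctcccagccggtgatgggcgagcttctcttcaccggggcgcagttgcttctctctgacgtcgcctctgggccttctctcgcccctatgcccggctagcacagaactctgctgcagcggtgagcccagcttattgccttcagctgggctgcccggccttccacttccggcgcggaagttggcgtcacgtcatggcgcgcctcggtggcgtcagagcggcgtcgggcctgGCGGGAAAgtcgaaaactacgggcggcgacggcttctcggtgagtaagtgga
EXO1: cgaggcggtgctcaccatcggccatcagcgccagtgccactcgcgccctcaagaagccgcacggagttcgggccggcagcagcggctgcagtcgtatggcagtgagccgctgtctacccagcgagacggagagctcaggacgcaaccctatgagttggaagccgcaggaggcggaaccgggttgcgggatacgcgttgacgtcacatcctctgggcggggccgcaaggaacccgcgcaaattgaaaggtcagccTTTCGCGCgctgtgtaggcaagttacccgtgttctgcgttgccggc
XRCC2: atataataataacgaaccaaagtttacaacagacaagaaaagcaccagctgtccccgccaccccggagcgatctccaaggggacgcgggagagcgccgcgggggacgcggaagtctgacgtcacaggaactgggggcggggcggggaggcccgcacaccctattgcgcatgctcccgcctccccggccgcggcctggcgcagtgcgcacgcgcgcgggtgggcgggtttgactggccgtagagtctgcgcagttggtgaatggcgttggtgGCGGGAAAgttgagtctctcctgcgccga
RAD51D: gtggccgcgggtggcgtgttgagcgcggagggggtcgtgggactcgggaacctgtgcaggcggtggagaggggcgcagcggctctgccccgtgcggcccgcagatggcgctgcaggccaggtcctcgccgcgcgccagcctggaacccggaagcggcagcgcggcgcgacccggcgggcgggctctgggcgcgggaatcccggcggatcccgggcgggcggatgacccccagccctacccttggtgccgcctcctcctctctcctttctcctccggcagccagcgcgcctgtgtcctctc
FANCC held 2 matches, the first on the other strand from base -172 to -165 before the start and the second from -46 to -39. The match of FANCD2 spans the start, from base -2 to 6, that of EXO1 lies from base 5 to 12 and that of XRCC2 from base 22 to 29 after it, while that of FANCA lies from base -172 to -165. Their log2 fold changes were -0.02 for FANCA, -0.03 for FANCC, 0.04 for FANCD2, 0.06 for EXO1 and 0.00 for XRCC2.

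**Figure D5:**
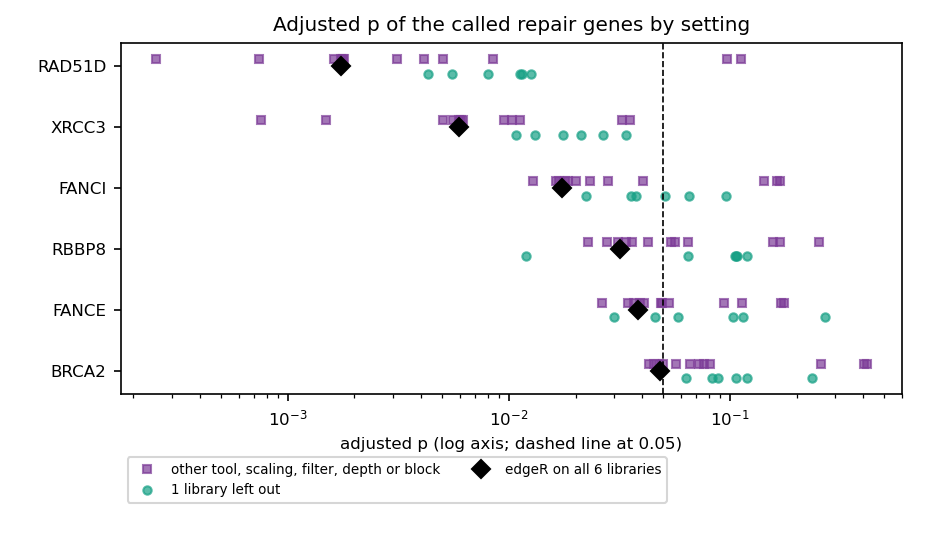
Adjusted p of the 6 called repair genes (log axis, dashed line at 0.05) on all 6 libraries (diamonds), with 1 library left out (circles) and under other tools, scalings, filters, depths or a replicate block (squares). XRCC3 stays left of the line throughout, RAD51D crosses it in 2 of 18 alternatives and BRCA2 in 14 of 18.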

How the data were processed

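The 6 libraries were grouped by their titles, 3 as siNC and 3 as siTRAIP. Per the labels' protocols, TRIzol was used for the RNA and a strand-specific mRNA kit for the libraries. Counts per gene, as whole numbers, are in the table deposited by the authors. Trimmomatic 0.36, featureCounts and Subread 1.5.1, with GRCh38, stand in the submitters' processing notes; the aligner, the annotation release and the counter's strand setting are not given there. The deposited RPKM values equal values recomputed from counts, gene lengths and library totals to within 1.25e-06 of their size. Even values made up 70.2% of counts between 1 and 10 but 50.8% of high counts, so halved counts were one alternative. Gene positions are those of the table, overlaps were computed from its exons, and pseudogenes were counted in GENCODE 29.

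The counts were fitted over all genes with edgeR 4.0.16 in R 4.3.3 (filterByExpr, TMM, quasi-likelihood F-test with robust=TRUE, 2-sided, Benjamini-Hochberg adjustment over 18685 genes, threshold 0.05); the script was tested on simulated data. The common biological coefficient of variation was 5.73%. SE is the log2 fold change divided by the square root of F, and 95% intervals use the fit's degrees of freedom. CPM values use TMM-scaled totals; RPKM values do not. Alternatives were DESeq2 1.42.0, RLE, upper-quartile and no factors, other count filters, limma 3.58.1 on RPKM in log2 with a pseudocount of 0.1 or 1, a fit with robust=FALSE, the replicate number as a block, halved and thinned counts, and each library left out. No set test was run. The members and lists were chosen with earlier results of these data known. All members are named. Values in every library are given for called members and NEIL3, FANCM, FANCD2, FANCI, BRCA1, BRCA2 and BLM, and outside them for TRAIP, MND1 and PSMC3IP. The remaining called genes of the 2 pathway lists are given by log2 fold change and adjusted p. Library values of MUS81, FANCG, RAD50 and RAD51AP1 were added after they were seen. The same holds for the fold changes of the neighbours of XRCC3, RAD51D, RAD54B and PSMC3IP. Results on some genes of these lists are not reported here.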

Additional observations from a re-analysis of the deposited data

How the results depend on the processing

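TRAIP mRNA passed in every alternative run, with a log2 fold change from -1.209 to -0.991. Of 792 values of the 35 members and 9 pathway genes under alternatives, 652 kept direction and side of the threshold, 85 lost the call, 6 gained it and 49 changed sign, none of the last for a called gene. With library totals only, 3 members were called (1 higher, 2 lower), and with limma on log2(RPKM + 0.1) or log2(RPKM + 1), 2 (0 higher, 2 lower; XRCC3 and FANCG); these scales leave out the TMM factors, and the median of the members was then -0.0222, -0.0225 and -0.0174. Among all genes 838 rose and 2050 fell on library totals, and 1521 and 1517 genes passed on the RPKM scales, 454 and 450 of them higher. At equal depth 3 members were called (2 higher), and 3 were called higher with DESeq2; the cause was not tested. With 1 library left out, and so fewer samples, 2 to 6 members were called, 1 to 5 of them higher, among 1480 to 2622 genes (878 to 1471 higher, 602 to 1151 lower).

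Log2 fold changes that turned sign were all near 0 and none passed. On library totals they were FANCM -0.0494, FANCD2 -0.0239, NEIL3 -0.0483, BRCA1 -0.0504, BRIP1 -0.0548, NBN -0.0537, XRCC2 -0.0583 and RAD54L -0.0222. With limma on log2(RPKM + 0.1) they were FANCM -0.0476, FANCD2 -0.0236, NEIL3 -0.0477, BRCA1 -0.0498, BRIP1 -0.0571, NBN -0.0551, EXO1 -0.00295, XRCC2 -0.0573 and RAD54L -0.0225. With limma on log2(RPKM + 1) they were FANCM -0.0326, FANCD2 -0.0192, NEIL3 -0.0422, BRCA1 -0.0463, BRIP1 -0.0492, NBN -0.0525, EXO1 -0.00261, XRCC2 -0.0531 and RAD54L -0.0174. XRCC2 stood at -0.00248 with halved counts, -0.000662 without a count filter and -0.00871 at equal depth. With 1 library left out the ranges were BARD1 from -0.0549 to 0.0102, BRCA1 from -0.0262 to 0.0354, BRIP1 from -0.0418 to 0.0411, FANCA from -0.0449 to 0.00464, FANCM from -0.0588 to 0.0574, NBN from -0.0261 to 0.0524, NEIL3 from -0.0219 to 0.0314, PALB2 from -0.0862 to 0.0226, RAD54B from -0.0901 to 0.00282, RAD54L from -0.0136 to 0.0646 and XRCC2 from -0.017 to 0.0124.

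Nothing in the labels ties equal numbers to one culture or day, and the correlations of deviations between libraries of equal number, -0.00757, -0.0177 and 0.00138, do not pair them. With the number as a replicate block, 4 members were called, 3 higher (FANCE, FANCI and RAD51D) and 1 lower, among 2145 genes, and TRAIP stood at -1.11. The block ended the calls of BRCA2 (adjusted p = 0.0656), RBBP8 (0.0647), USP1 (0.0503), SPIDR (0.0525) and RFWD3 (0.0674), and changed no other call among the 35 members and 9 pathway genes. Of the 5 members highest by RPKM, 3 were also among the 5 highest by CPM, which is not scaled by gene length. The SEs of the members ran from 0.0399 to 0.162, and the smallest called change was 0.133 in size, so smaller changes could mostly not be detected at this depth and number of libraries.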

Other observations

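Other DNA repair pathways were also compared, each as a list of genes chosen by name. XPC, whose protein recognises distorted DNA in nucleotide excision repair, rose by 0.38 on the log2 scale (edgeR adjusted p = 1.03e-05), from 97.3 to 127 CPM. Of 15 end joining genes tested 2 rose and 1 fell (20%, against 12.8% of all tested genes). The ligase gene LIG4 fell by 0.34 on the log2 scale (edgeR adjusted p = 0.000448) and SHLD2, listed as FAM35A, which limits end resection, rose by 0.31 (0.000104), while PRKDC rose by 0.15 (0.0112). Of 24 base excision and mismatch repair genes 3 rose and none fell. An unadjusted edgeR p under 0.05 was found for 10 of them and for 4629 of all 18685 genes tested. The called share was 12.5%, against 12.8% of all tested genes. The rises were in MSH6, with a log2 fold change of 0.27 (edgeR adjusted p = 0.000202), UNG with 0.18 (0.0362) and LIG1 with 0.15 (0.0311). These genes were named after their values were seen, and their calls were not examined under the alternatives.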
